A study of Mus musculus with 7 samples.

Results

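The genes of the proteasome were examined in mouse liver after lipopolysaccharide (LPS), a component of the outer membrane of Gram-negative bacteria that is given to animals to model septic liver injury. Members were the genes whose symbol begins with Psm, continues with a letter from a to g and a number, and may end with a further letter. This rule gave 49 of the 56691 genes in the count table. Liver RNA was sequenced from male C57BL/6J mice, an inbred laboratory strain, which were 8 weeks old at purchase and were then acclimatised for 2 weeks. The control group had 4 mice, and the LPS group had 3 mice that received 10 mg/kg of LPS by intraperitoneal injection and were killed 24 h later. The sources used here do not give what the control mice were injected with. The comparison covers a single dose, a single time and male mice, and whole liver was taken, so that RNA of hepatocytes was measured together with that of blood and lining cells. As a check of the tissue, albumin (Alb) was the most abundant of the 6 hepatocyte markers found, with a mean of 46980 CPM in control mice and 24660 CPM in LPS mice, where CPM is the gene's count scaled by the size of its library times a factor from the trimmed mean of M-values (TMM).

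The proteasome is the barrel-shaped protease that degrades proteins marked with ubiquitin. Its 20S core is built of outer alpha rings and inner beta rings, and only some beta subunits cut the protein chain, while the 19S cap binds ubiquitin, removes it and unfolds the substrate with a ring of ATPases. In cells that meet interferon-gamma, and in many blood cells at all times, the immune catalytic subunits Psmb8, Psmb9 and Psmb10 replace the constitutive Psmb5, Psmb6 and Psmb7, and the PA28 cap is made in larger amounts, which alters the peptides that MHC class I molecules present to T cells.

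The libraries held 14991022, 15096573, 15721944 and 18584140 counts in control mice 1 to 4 and 20500391, 17095607 and 17821331 counts in LPS mice 1 to 3. At these depths 3 counts, taken as the limit of detection, corresponded to between 0.138 and 0.212 CPM, a limit that covers counting error only. Some libraries stood apart before any gene was considered. In controls 1 and 2 the genes with the shortest exons, below 2486 bases in all, lay a median of 0.11 and 0.13 above the control mean on the log2 scale, while in controls 3 and 4 they lay at -0.10 and -0.10. In the LPS libraries the same medians were 0.01, 0.01 and 0.03. Mitochondrial genes took 23.7%, 14.6%, 7.48% and 8.96% of the counts in controls 1 to 4 and 6.45%, 3.83% and 3.94% in LPS mice 1 to 3. LPS mice 2 and 3 were the most alike pair of the same group, with an SD of the log2 ratio of 0.12 over 1901 well-counted genes against 0.31 to 0.55 in the other pairs. Over another set of genes, with lower counts, they differed by 3.74 times the counting variance, more than sampling noise alone. They were counted as separate samples, as labelled. This ratio to the counting variance does not show whether libraries came from separate livers. All p-values rest on the spread between these mice.

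Few proteasome genes passed the test between the groups. Of the 48 members that could be tested, 3 were higher and 2 were lower in LPS mice at an adjusted p below 0.05 (edgeR quasi-likelihood test), against 13.3% and 13.0% of the 13683 genes tested. These shares of the members, 6.25% and 4.17%, were below the background in either direction. No member also passed an absolute log2 fold change above 1, which 7.81% of all genes did upward and 7.31% downward. The higher members were Psmd8, Psmd9 and Psmd10, and the lower ones were Psma2 and Psma3. The remaining member, Psmb11, the thymus-specific catalytic subunit, had 0 counts in all 7 libraries and was not tested.

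The members shifted little as a group. Their median log2 fold change was -0.14, against -0.01 over all genes tested, with 14 members above 0 and 34 below. The 18 tested genes of the 20S core had a median of -0.24, with 3 above 0 and 15 below. For the 17 genes of the 19S cap without its chaperones the median was -0.14, with 5 above 0 and 12 below. The summed levels of either part overlapped between the groups. Every LPS mouse lay above every control mouse in 4 tested members and below every control mouse in 7, against 18.1% and 17.4% of all genes. The summed level of the members was 3348, 3636, 3450 and 3225 CPM in controls 1 to 4 and 2902, 3352 and 3285 CPM in LPS mice 1 to 3. LPS mouse 1 was the lowest, and the groups overlapped. With total counts in place of scaling factors the median of all genes moved to -0.13 and that of the members to -0.26, and the calls over all genes changed from 1825 higher and 1773 lower to 1350 higher and 2057 lower. Under that scaling 1 member was called higher, Psmd9, and 4 were called lower. The median of the members minus that of all genes was -0.125 with all mice and -0.134 with total counts, but -0.074 without LPS mouse 1, -0.179 without LPS mouse 2 and -0.052 with no filter on low counts, and over all 20 alternatives it lay between the last 2 of these values. In bulk tissue a change in the number of cells of a type and a change in RNA per cell cannot be told apart.

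**Figure D1:**
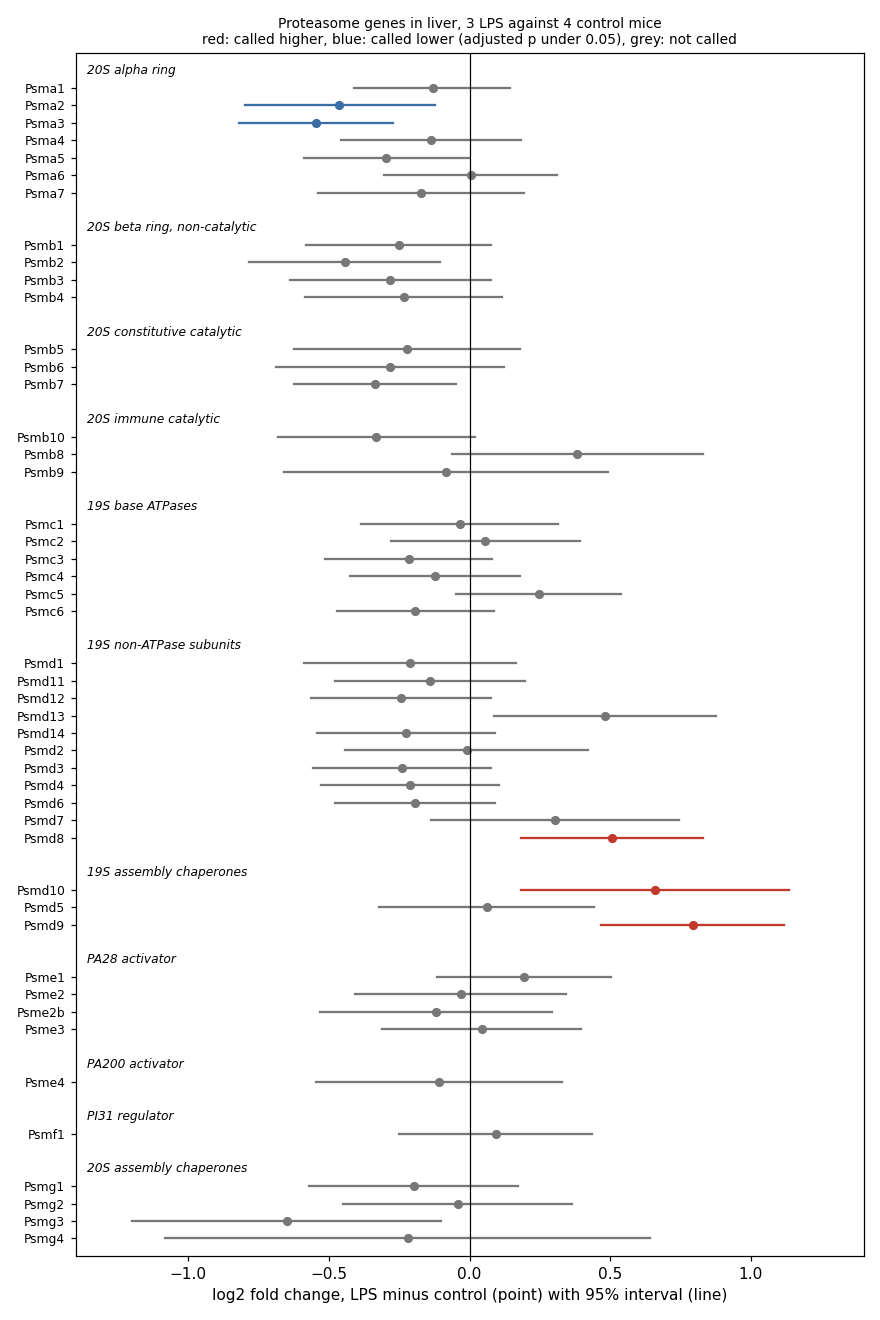
Log2 fold change of LPS against control (x axis, points) with the 95% interval (lines) for 47 tested members in rows grouped by role; Psma8, whose interval runs from -0.64 to 2.32, is not drawn. Red marks the 3 members called higher, blue the 2 called lower and grey those not called, and the points of the 20S subunits lie mostly left of 0.

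The alpha ring forms the gated entrance of the core. Of its 8 genes, 2 fell and none rose, against 13.0% and 13.3% of all genes tested, with a median log2 fold change of -0.16. Psma3, an alpha ring subunit, measured 85.4, 82.6, 85.5 and 82.2 CPM in controls 1 to 4 and 54.7, 60.8 and 56.8 CPM in LPS mice 1 to 3. All LPS mice lay below all control mice, and the controls were nearly equal. The control mean of 83.9 ± 1.78 CPM (n = 4, SD) and the LPS mean of 57.4 ± 3.09 CPM (n = 3, SD) gave a log2 fold change of -0.55 with an SE of 0.13 (edgeR adjusted p = 0.00651). The adjusted p stayed between 0.00111 and 0.0425 in the 20 alternative settings, with log2 fold changes between -0.67 and -0.51.

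Psma2, another subunit of the ring, measured 118, 106.3, 86.1 and 85.1 CPM in controls 1 to 4 and 69.7, 67.3 and 78.1 CPM in LPS mice 1 to 3. Again no LPS mouse reached a control mouse, but controls 1 and 2 stood above controls 3 and 4. Its log2 fold change was -0.46 (SE 0.15, edgeR adjusted p = 0.0443). This call was lost without control 1, control 2 or any of the LPS mice, with edgeR adjusted p between 0.0834 and 0.178 in those fits and between 0.00491 and 0.178 over all 20 alternatives, of which 12 gave a value below 0.05. Here and for the genes below, the alternatives with a stricter p or a fold change threshold repeat the adjusted p of the main fit. For a called gene they count as below 0.05 even where the gene did not pass the stricter rule. With controls 1 and 2 left out together, a setting chosen after seeing the data, the log2 fold change was -0.27 (edgeR adjusted p = 0.133).

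The 5 other common alpha genes, Psma1, Psma4, Psma5, Psma6 and Psma7, had log2 fold changes between -0.30 and 0.00 and were not called. Psma1 and Psma5 lay lower in every LPS mouse than in every control mouse without passing the test. Psma8, the alpha subunit of the testis, had the highest log2 fold change of the ring at 0.84, but from 4, 9, 16 and 10 counts in controls and 27, 4 and 26 counts in LPS mice. Its groups overlapped, the interval ran from -0.64 to 2.32, and no difference was detected (edgeR adjusted p = 0.403). The log2 fold change was 0.40 without LPS mouse 3 and 1.29 without LPS mouse 2.

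The beta subunits without catalytic activity, Psmb1 to Psmb4, frame the cutting chamber. None of the 4 passed the test, and all 4 had negative log2 fold changes, from -0.45 for Psmb2 to -0.24 for Psmb4, with a median of -0.27. Psmb2 measured 56.5, 64.0, 47.5 and 43.9 CPM in controls 1 to 4 and 36.9, 39.2 and 40.5 CPM in LPS mice 1 to 3. All LPS mice were below the lowest control mouse. Its edgeR adjusted p was 0.0526, and it was called lower in 6 of 20 alternatives, within a range of 0.0054 to 0.17. These were total counts (edgeR adjusted p = 0.0249), at least 10 counts in every sample (0.0434), the replicate block (0.0404), leaving out control 3 (0.0341) or control 4 (0.0324), and leaving out both of these, a setting chosen after seeing the data (0.0054). In that last setting the log2 fold change was -0.61. With controls 1 and 2 left out together, also chosen after seeing the data, it was -0.245 (edgeR adjusted p = 0.17). Psmb4 measured 137.6, 186.3, 132.5 and 132.6 CPM in controls 1 to 4 and 111.8, 137.8 and 125.7 CPM in LPS mice 1 to 3. Control 2 was far above the other controls, and the groups overlapped (edgeR adjusted p = 0.318).

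The constitutive catalytic subunits cut the chain in the ordinary proteasome. Psmb5, which cuts after large hydrophobic residues, measured 95.5, 93.2, 63.0 and 59.7 CPM in controls 1 to 4 and 61.4, 69.5 and 69.3 CPM in LPS mice 1 to 3. Psmb6, which cuts after acidic residues, measured 139.2, 129.4, 90.6 and 88.7 CPM in controls 1 to 4 and 78.8, 99.9 and 97.7 CPM in LPS mice 1 to 3. For both genes controls 1 and 2 were high, and controls 3 and 4 lay among or near the LPS mice. Psmb7, which cuts after basic residues, measured 100.5, 108.4, 118.4 and 100.4 CPM in controls 1 to 4 and 79.4, 87.1 and 87.5 CPM in LPS mice 1 to 3. Here the controls did not part in this way, and every LPS mouse lay below every control mouse.

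None of the constitutive catalytic genes was called with all mice, with log2 fold changes of -0.22, -0.28 and -0.34 for Psmb5, Psmb6 and Psmb7 and edgeR adjusted p of 0.419, 0.301 and 0.081. The 95% intervals were -0.62 to 0.18, -0.69 to 0.12 and -0.63 to -0.05. For each of the 3 genes the call depended on the controls used. With controls 3 and 4 left out together, Psmb5 and Psmb6 were called lower at -0.48 and -0.53 (edgeR adjusted p = 0.0135 and 0.0164). With controls 1 and 2 left out together their log2 fold changes were 0.11 and 0.03. Over all alternatives the adjusted p ran from 0.0135 to 0.697 for Psmb5 and from 0.0164 to 0.916 for Psmb6. Psmb7 was called lower in 4 of 20 alternatives, within a range of 0.0442 to 0.211. With controls 1 and 2 left out together its log2 fold change was -0.38 (edgeR adjusted p = 0.0442), and with controls 3 and 4 left out together it was -0.28 and not called (edgeR adjusted p = 0.104). It was also called with total counts, with at least 10 counts in every sample and with the trend along exon length taken off (edgeR adjusted p = 0.0444, 0.0488 and 0.0462), the last setting chosen after seeing the data.

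The immune catalytic subunits did not pass the test in either direction. Psmb8, the immune counterpart of Psmb5, measured 33.1, 29.0, 18.4 and 19.6 CPM in controls 1 to 4 and 30.5, 30.4 and 36.7 CPM in LPS mice 1 to 3. LPS mouse 3 was the highest of all mice, but LPS mice 1 and 2 lay between controls 1 and 2 and above controls 3 and 4, so the groups overlapped. Its mean was 24.99 ± 7.16 CPM (n = 4, SD) in control and 32.6 ± 3.62 CPM (n = 3, SD) in LPS mice. The log2 fold change was 0.38 (95% interval -0.06 to 0.83, edgeR adjusted p = 0.197). With controls 1 and 2 left out together it was called higher at 0.77 (edgeR adjusted p = 0.00467), and with controls 3 and 4 left out together the value was 0.09 (edgeR adjusted p = 0.695), the ends of the range over all alternatives.

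Psmb9, the immune counterpart of Psmb6, measured 12.3, 11.4, 7.39 and 8.57 CPM in controls 1 to 4 and 10.9, 11.3 and 5.79 CPM in LPS mice 1 to 3. LPS mouse 3 had the lowest level of all mice, and the other LPS mice lay within the controls. Its log2 fold change was -0.08 (95% interval -0.66 to 0.49, edgeR adjusted p = 0.855). Psmb10, the immune counterpart of Psmb7, measured 24.3, 28.1, 24.9 and 20.3 CPM in controls 1 to 4 and 19.6, 21.8 and 16.8 CPM in LPS mice 1 to 3. LPS mice 1 and 3 were below every control mouse and LPS mouse 2 was above control 4. Its log2 fold change was -0.33 (95% interval -0.68 to 0.02, edgeR adjusted p = 0.157). The upper ends of these intervals leave room for a rise of Psmb8 and Psmb9 but for next to none of Psmb10.

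**Figure D2:**
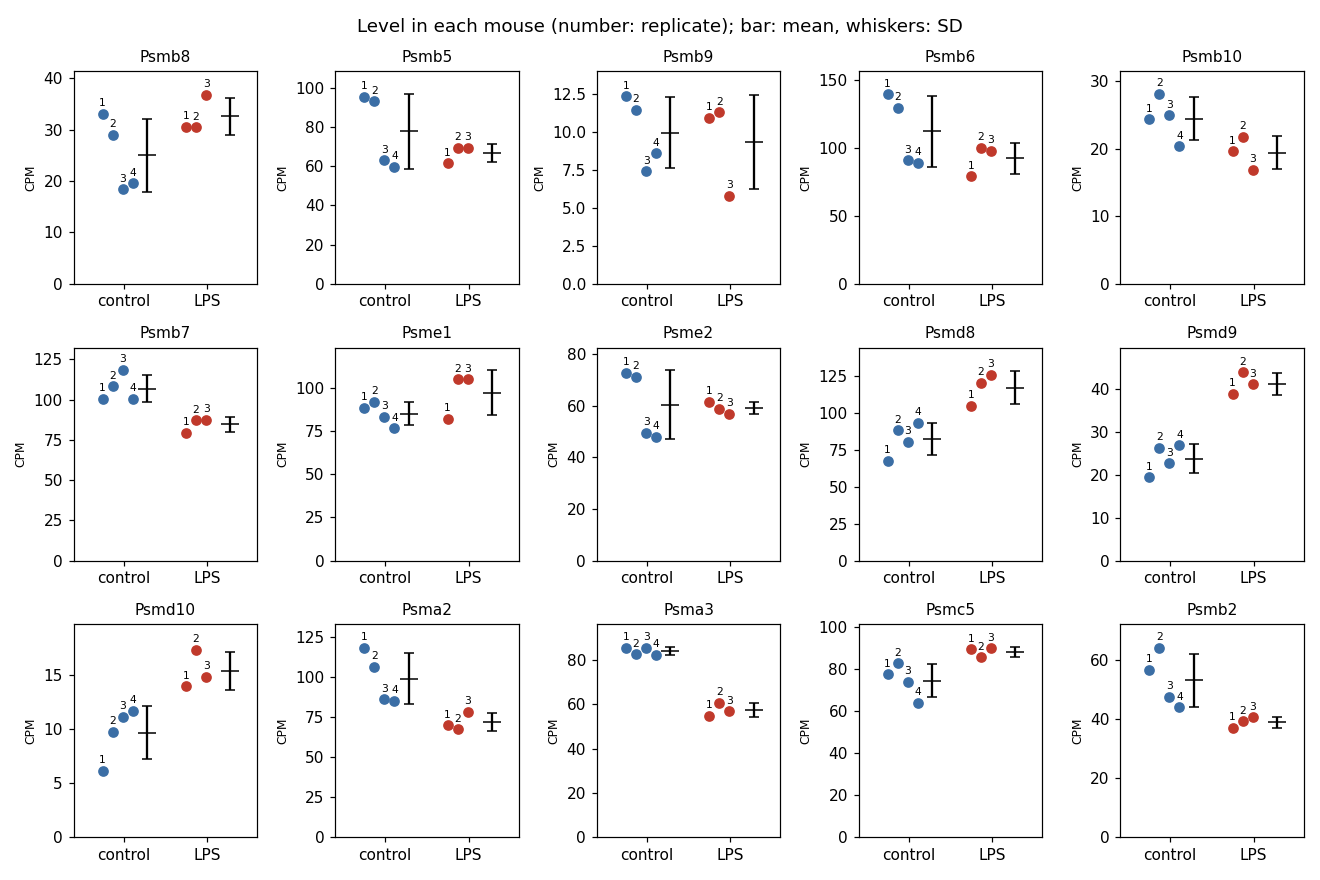
Level of 15 members in each mouse, in CPM on a linear y axis that starts at 0, for 4 control (blue) and 3 LPS (red) mice, with the replicate number above each point and the mean and SD as a black bar with whiskers. Psma3 separates the groups with little spread, whereas Psmb5, Psmb6, Psmb8 and Psme2 part controls 1 and 2 from controls 3 and 4.

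The balance of immune and constitutive subunits was followed as the log2 ratio of each pair within a mouse, with 0.5 CPM added to either gene. Gene length is not taken off in the ratio itself, and cancels in its difference between groups only where it acts alike in every library. The trends along exon length that differed between libraries do not cancel. With these trends taken off, chosen after seeing the data, the log2 fold changes of Psmb8 and Psmb5 were 0.35 and -0.12, against 0.38 and -0.22. The ratios were not computed under that setting. For Psmb8 to Psmb5 the ratio was -1.52, -1.67, -1.75 and -1.59 in controls 1 to 4 and -0.998, -1.18 and -0.91 in LPS mice 1 to 3. All LPS mice lay above all control mice, and the controls did not part as they did in either gene alone. The ratio was higher by 0.60 in LPS mice, or 1.52-fold (exact permutation test over the 35 ways to choose 3 of 7 mice, two-sided, p = 0.0286, the smallest p this design can give). After adjustment over the 3 pairs the exact p was 0.0857, the smallest that a pair differing alone can reach with 7 mice, so the adjusted test could not have passed the threshold for this pair by itself.

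For Psmb9 to Psmb6 the ratio was -3.45, -3.45, -3.53 and -3.30 in controls 1 to 4 and -2.80, -3.09 and -3.96 in LPS mice 1 to 3. LPS mice 1 and 2 were above the controls and LPS mouse 3 was below them, and the difference of 0.15 was smaller than the SD of 0.61 among LPS mice (exact permutation p = 0.686). Without LPS mouse 3 the difference was 0.49, and without LPS mouse 1 it was -0.10. For Psmb10 to Psmb7 the ratio was -2.02, -1.93, -2.23 and -2.28 in controls 1 to 4 and -1.99, -1.98 and -2.35 in LPS mice 1 to 3. The groups overlapped throughout, with a difference of 0.01 (exact permutation p = 0.971) that turned negative without control 3, control 4, LPS mouse 1 or LPS mouse 2, down to -0.06.

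**Figure D3:**
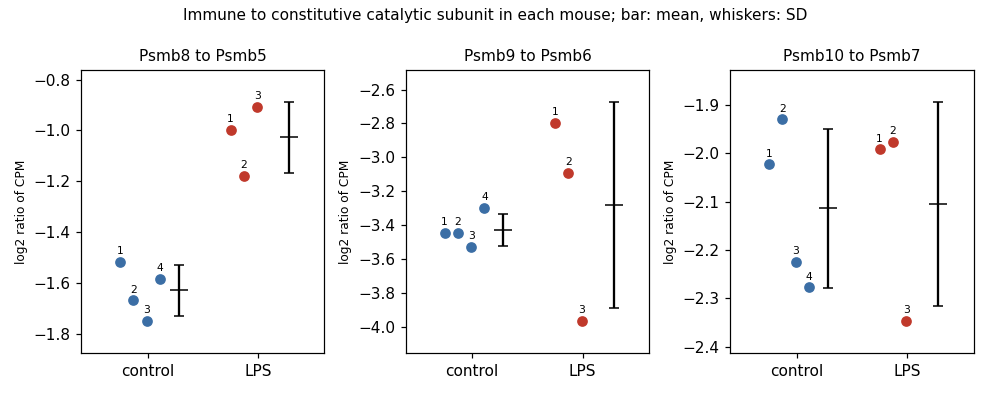
Log2 ratio of the CPM of each immune catalytic gene to its constitutive counterpart in each of 4 control (blue) and 3 LPS (red) mice, numbered by replicate, with the mean and SD as a black bar with whiskers and a y axis of its own for each pair. The groups do not overlap for Psmb8 to Psmb5, with controls between -1.75 and -1.52 and LPS mice between -1.18 and -0.91, and overlap for the other pairs.

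Levels of different genes were compared per kilobase of exon. In control mice the mean was 86.6, 59.8 and 31.3 CPM per kilobase for Psmb5, Psmb6 and Psmb7 and 7.39, 2.71 and 14.3 CPM per kilobase for Psmb8, Psmb9 and Psmb10. In LPS mice it was 74.2, 49.2 and 24.8 CPM per kilobase for the constitutive and 9.63, 2.55 and 11.4 CPM per kilobase for the immune genes. In both groups each immune gene thus stayed below its constitutive counterpart on this scale. The exon length counts all annotated exons of a gene, also rarely used ones, and comes from another genome build than the counts, so the order is approximate where values are close. The summed level of the 3 immune genes was 69.7, 68.5, 50.7 and 48.4 CPM in controls 1 to 4 and 61.0, 63.5 and 59.3 CPM in LPS mice 1 to 3. The LPS mice lay between the higher and the lower controls.

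The ATPases at the base of the 19S cap unfold the substrate and open the core. None of the 6 genes was called, and their median log2 fold change was -0.08. Psmc5, the highest, measured 77.5, 82.8, 73.9 and 64.1 CPM in controls 1 to 4 and 89.5, 85.6 and 90.0 CPM in LPS mice 1 to 3. Every LPS mouse exceeded every control mouse, yet the log2 fold change of 0.25 did not pass the test (95% interval -0.05 to 0.54, edgeR adjusted p = 0.21). Psmc3, the lowest, measured 117, 124.6, 101.8 and 109.1 CPM in controls 1 to 4 and 89.6, 96.6 and 105.7 CPM in LPS mice 1 to 3. LPS mouse 3 lay above control 3, so the groups overlapped, with a log2 fold change of -0.22 (edgeR adjusted p = 0.274). Their summed level, 573.7 ± 18.5 CPM (n = 4, SD) in control and 551.6 ± 40.4 CPM (n = 3, SD) in LPS mice, differed by less than the spread among LPS mice.

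The other 19S subunits bind ubiquitin, remove it or hold the cap together. Of these 11 genes 1 rose, a share near or below the 13.3% of all genes tested. It was Psmd8, a subunit of the lid, which measured 67.7, 88.2, 80.5 and 93.2 CPM in controls 1 to 4 and 104.7, 120.6 and 126 CPM in LPS mice 1 to 3. All LPS mice lay above all control mice. The control mean was 82.4 ± 11.1 CPM (n = 4, SD) and the LPS mean 117.1 ± 11.1 CPM (n = 3, SD). The rise on the log2 scale was 0.51 with an SE of 0.15 (edgeR adjusted p = 0.0242). The call was lost without LPS mouse 2 or LPS mouse 3, at 0.49 and 0.45 (edgeR adjusted p = 0.097 and 0.117), and with total counts in place of scaling factors (edgeR adjusted p = 0.143), within a range of 0.0131 to 0.143 over all 20 alternatives, of which 16 gave a value below 0.05. Psmd8 passed neither the stricter p nor the fold change threshold, although both settings are among these 16.

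The lowest of the same list was Psmd12, a scaffold subunit of the lid, with 82.4, 87.0, 106.8 and 84.7 CPM in controls 1 to 4 and 68.9, 86.1 and 73.6 CPM in LPS mice 1 to 3. LPS mouse 2 lay among the controls (log2 fold change -0.24, edgeR adjusted p = 0.255). Of the 11 genes 8 had negative values, and the list's median was -0.20. Psmd13, also of the lid and singled out after its values were seen, had a log2 fold change of 0.48 and an interval of 0.09 to 0.87 but did not pass the adjusted threshold (edgeR adjusted p = 0.069). It was called higher in 4 of 20 alternatives, with no filter, with the replicate block, without LPS mouse 1 and with controls 3 and 4 left out together. The receptor Psmd4, which binds ubiquitin chains, and the deubiquitinase Psmd14, also singled out afterwards, had log2 fold changes of -0.21 and -0.23 and were not called.

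The highest log2 fold changes among well-counted members were in chaperones that assemble the 19S base and leave it before the proteasome is complete. Of Psmd5, Psmd9 and Psmd10, the last 2 rose, where 13.3% of all genes tested did. Psmd9 measured 19.4, 26.3, 22.7 and 26.9 CPM in controls 1 to 4 and 38.9, 43.9 and 41.1 CPM in LPS mice 1 to 3. Every LPS mouse stood clearly above every control mouse. The control mean was 23.8 ± 3.47 CPM (n = 4, SD) and the LPS mean 41.3 ± 2.55 CPM (n = 3, SD). On the log2 scale Psmd9 rose by 0.79 with an SE of 0.15 (edgeR adjusted p = 0.00182). Its adjusted p stayed between 8.53e-05 and 0.0163 in the 20 alternative settings, with log2 fold changes between 0.66 and 0.87.

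Psmd10, also known as gankyrin, measured 6.16, 9.78, 11.1 and 11.7 CPM in controls 1 to 4 and 14.0, 17.3 and 14.8 CPM in LPS mice 1 to 3. Control 1 was the lowest, and the groups did not overlap. Its log2 fold change was 0.66 (SE 0.22, edgeR adjusted p = 0.043). The call was lost without control 1, control 2 or any LPS mouse, with adjusted p between 0.0575 and 0.165 in those edgeR fits, and over all 20 alternatives the adjusted p ran from 0.0132 to 0.165 and was below 0.05 in 11. It was also lost with total counts and with the trend along exon length taken off (edgeR adjusted p = 0.147 and 0.0594). With controls 1 and 2 left out together, chosen after seeing the data, the log2 fold change of Psmd10 was 0.41 (edgeR adjusted p = 0.123). With controls 3 and 4 left out together, also chosen afterwards, it was 0.96 (edgeR adjusted p = 0.0132). Psmd5 was not called, with a log2 fold change of 0.06 and overlapping groups. The chaperones' summed level was 48.5, 57.7, 68.6 and 68.3 CPM in controls 1 to 4 and 82.1, 89.1 and 84.2 CPM in LPS mice 1 to 3, higher in each LPS mouse than in each control mouse.

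The chaperones of the 20S core, Psmg1 to Psmg4, help to build the alpha ring. None of the 4 was called, and all 4 log2 fold changes were negative, from -0.65 to -0.04. Psmg3, singled out after its values were seen, had the lowest log2 fold change of all members, with 11.8, 15.7, 7.76 and 10.2 CPM in controls 1 to 4 and 8.85, 6.06 and 6.66 CPM in LPS mice 1 to 3. Control 3 lay below LPS mouse 1, and the difference did not pass the test (edgeR adjusted p = 0.0778). It was called lower in 3 of 20 alternatives, with no filter, without control 3 and with controls 3 and 4 left out together.

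The PA28 cap opens the core without ubiquitin or ATP. Psme1, its alpha subunit, measured 88.3, 91.8, 83.4 and 76.6 CPM in controls 1 to 4 and 82.0, 104.8 and 104.8 CPM in LPS mice 1 to 3. LPS mice 2 and 3 were above all controls and LPS mouse 1 was not (log2 fold change 0.19, 95% interval -0.12 to 0.50, edgeR adjusted p = 0.357). Psme2, its beta subunit, measured 72.6, 71.1, 49.6 and 48.0 CPM in controls 1 to 4 and 61.4, 58.7 and 56.7 CPM in LPS mice 1 to 3. The LPS mice lay between controls 1 and 2 and controls 3 and 4 (log2 fold change -0.03, 95% interval -0.41 to 0.34, edgeR adjusted p = 0.918). Psme3, which forms a separate cap in the nucleus, measured 41.9, 35.1, 52.8 and 37.5 CPM in controls 1 to 4 and 38.8, 43.6 and 46.8 CPM in LPS mice 1 to 3, with overlapping groups (edgeR adjusted p = 0.881).

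Psme4 encodes PA200, a single-chain cap. It measured 60.2, 81.7, 119 and 93.2 CPM in controls 1 to 4 and 72.3, 90.0 and 84.1 CPM in LPS mice 1 to 3. Control 1 was the lowest and control 3 the highest of all mice, so the spread of the controls held the whole LPS group (edgeR adjusted p = 0.742). Psmf1 encodes PI31, a regulator that binds the core, and it was not called (log2 fold change 0.09, edgeR adjusted p = 0.718).

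Some of these counts may hold reads of near copies, since the sources used here do not state the counting of reads with more than a single matching gene. Of windows of 50 bases in the longest transcript, 59.3% of those of Psme2 also occurred in Psme2b, a second gene of the PA28 beta type, and 68.7% of those of Psme2b in Psme2. Psmb5 shared 49.4% of its windows with a processed pseudogene, Psma5 37.2%, Psma4 25.6%, Psmd2 25.2% and Psma3 22%. The values of these genes are uncertain by the reads that could have been given to either copy.

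Partners of the proteasome with other gene names were compared as a list of 11 genes found in the table. Of these, 5 fell and none rose, against 13.0% and 13.3% of all genes tested, with a median log2 fold change of -0.43 against -0.01. Usp14, a deubiquitinase that binds the cap, measured 46.1, 41.0, 49.9 and 54.1 CPM in controls 1 to 4 and 32.0, 36.9 and 30.2 CPM in LPS mice 1 to 3. The groups did not overlap (log2 fold change -0.53, SE 0.15, edgeR adjusted p = 0.0181), but the call was lost without LPS mouse 1 or LPS mouse 3, with adjusted p of 0.0601 and 0.101, within a range of 0.00487 to 0.101 and with 15 of 20 alternatives below 0.05. Hspb1, a small heat shock protein and not a subunit, had the lowest value at -1.60 (edgeR adjusted p = 0.000317). The other 3 that fell, named after their values were seen, were Adrm1, a ubiquitin receptor of the cap, Uchl5, a deubiquitinase, and Txnl1, a thioredoxin-like protein of the cap, at -0.49, -0.53 and -0.43 (edgeR adjusted p = 0.0189, 0.032 and 0.0411). These 3 were not followed through the alternatives. Pomp, the chaperone that completes the beta ring, also named afterwards, was not called at -0.37 (edgeR adjusted p = 0.138).

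Nfe2l1 encodes the factor that drives proteasome genes when degradation falls short. It measured 57.6, 59.3, 82.4 and 70.5 CPM in controls 1 to 4 and 84.8, 90.3 and 104.2 CPM in LPS mice 1 to 3. All LPS mice were above all control mice, though control 3 came close. The rise of 0.46 (SE 0.16, edgeR adjusted p = 0.0464) was no longer called without control 1, 2 or 4 or any LPS mouse, with adjusted p of 0.0534 to 0.205 there and 0.00394 to 0.205 over all 20 alternatives, 11 of them below 0.05. With controls 1 and 2 left out together, chosen after seeing the data, the value was 0.27 (edgeR adjusted p = 0.171). With controls 3 and 4 left out together, also chosen afterwards, it was 0.69 (edgeR adjusted p = 0.00394). On the list of 8 genes of its route 2 rose and 1 fell, with a median of 0.10, against 13.3%, 13.0% and -0.01 over all genes tested. Sel1l, a part of the channel that removes proteins from the endoplasmic reticulum, rose by 0.62 (edgeR adjusted p = 0.00651). Nfe2l2, which encodes Nrf2, fell by 0.41 (edgeR adjusted p = 0.042), a call lost without control 1, 2 or 4 or any LPS mouse, with adjusted p of 0.0561 to 0.127 there and 0.0173 to 0.127 over all 20, 10 of them below 0.05. Of the 4 ubiquitin genes 1 was called, Ubb, with a rise of 0.63 (edgeR adjusted p = 0.00529), and the median of these genes was 0.07. Of 12 ubiquitin receptors and shuttles 1 was called, Zfand2a, with a rise of 0.71 (edgeR adjusted p = 0.034) that was lost without control 1, 2 or 4 or LPS mouse 1 or 2, with adjusted p of 0.0609 to 0.113 there and 0.0231 to 0.113 over all 20, 11 of them below 0.05. The median of that list was 0.01, and its share of genes that rose was near that of all genes.

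Another list held genes that act after the proteasome, in the loading of its peptides onto MHC class I. Of these 10 genes 7 rose and none fell, with a median log2 fold change of 0.58, against 13.3% and 13.0% of all genes tested and a median of -0.01. The list was not tested against the subunits. H2-D1, a class I heavy chain, measured 385.9, 344.5, 403.2 and 316.8 CPM in controls 1 to 4 and 886.2, 1122 and 1110 CPM in LPS mice 1 to 3. The groups lay far apart (log2 fold change 1.52, SE 0.16, edgeR adjusted p = 1.48e-05), with the limit that class I heavy chains are close in sequence. Tapbp, which holds the class I molecule at the transporter, rose by 0.995 (edgeR adjusted p = 0.000191). Tap1, which carries peptides into the endoplasmic reticulum, measured 12.7, 12.5, 9.66 and 11.9 CPM in controls 1 to 4 and 24.98, 12.8 and 16.9 CPM in LPS mice 1 to 3. LPS mouse 2 barely exceeded the controls (log2 fold change 0.65, SE 0.22, edgeR adjusted p = 0.0456). This call was lost without any single control and without LPS mouse 1 or 3, with adjusted p of 0.0544 to 0.254 there and 0.0104 to 0.254 over all 20 alternatives, 9 of them below 0.05, and without LPS mouse 1 the value was 0.35. The light chain gene B2m, named afterwards, was not called, at -0.50 (edgeR adjusted p = 0.12), though every LPS mouse lay below every control mouse.

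Regulators of the interferon response formed a further list. Of 11 tested genes 1 rose, a share near the 13.3% of all genes tested, and none fell. It was the receptor chain Ifngr2 at 1.06 (edgeR adjusted p = 0.00149), and the list's median was 0.27 against -0.01. Irf1 and Nlrc5, which switch on immune subunits and class I genes, had log2 fold changes of 0.33 and 0.27 (edgeR adjusted p = 0.213 and 0.524), and both were called higher, at 0.63 and 0.80, with controls 1 and 2 left out together (edgeR adjusted p = 0.0101 and 0.0385, the lowest over all alternatives, the highest being 0.693 and 0.888). With controls 3 and 4 left out together the values were 0.09 and -0.10, so that of Nlrc5 turned negative (edgeR adjusted p = 0.693 and 0.772). Both settings were chosen after seeing the data. Ifng itself had values of at most 0.35 CPM in any mouse and was not tested.

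Of 6 inducible ubiquitin-like modifiers and their enzymes 5 rose, against 13.3% of all genes tested, with a median of 1.17 against -0.01. Ubd, which encodes FAT10, a modifier that sends proteins to the proteasome, measured 1.77, 1.58, 0.98 and 0.77 CPM in controls 1 to 4 and 2.95, 8.76 and 9.90 CPM in LPS mice 1 to 3. All LPS mice were above all controls, with LPS mouse 1 the lowest of them (log2 fold change 2.50, SE 0.44, edgeR adjusted p = 0.00116). Usp18 and Ube2l6, which remove and attach ISG15, rose by 1.93 and 0.85 (edgeR adjusted p = 0.000678 and 0.000658). For Usp18 LPS mouse 1 was far above the other LPS mice, with 45.8 CPM against 18.6 and 17.4 CPM. Isg15, the modifier itself and named after its values were seen, was also called higher, at 1.46 (edgeR adjusted p = 0.0328), but measured 13.4, 7.95, 8.07 and 5.37 CPM in controls 1 to 4 and 48.1, 10.9 and 12.1 CPM in LPS mice 1 to 3. LPS mice 2 and 3 lay below control 1, so the groups overlapped.

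Markers of other cells were compared in the same way, where 13.3% of all genes tested were higher and 13.0% lower. All 6 tested of 8 neutrophil markers rose, with a summed level of 2.90, 2.40, 0.86 and 1.89 CPM in controls 1 to 4 and 200.9, 147.9 and 151.7 CPM in LPS mice 1 to 3. Ngp, Retnlg and Mmp8 had at most 1 count in any control mouse, and Cxcr2 had 0 counts in controls 1 and 3. These genes passed the filter on low counts through the LPS libraries, while Ly6g and Camp, low in both groups, were not tested. The filter thus largely fixed the number that rose, which is not compared with the share of all genes. S100a9 was the most abundant, and the defining marker Ly6g had 0 counts in every control mouse and in LPS mouse 2. Of 9 macrophage and Kupffer cell markers 4 rose and 1, Clec4f, fell, with a summed level of 135.7, 197.7, 185.7 and 119.7 CPM in controls 1 to 4 and 694.3, 180.2 and 185.1 CPM in LPS mice 1 to 3. Clec4f had the highest CPM of these markers in every control mouse, Marco in LPS mouse 1, with 409.7 CPM, and Lyz2 in LPS mice 2 and 3. Of the 6 hepatocyte markers found 3 fell and 1 rose, with summed levels from 59040 to 84210 CPM in control and from 38410 to 41800 CPM in LPS mice. Of 9 T and NK cell markers only 2 could be tested and 1, Cd4, fell, with summed levels from 3.58 to 5.50 CPM in control and from 2.51 to 3.46 CPM in LPS mice. Cd4 had 30, 39, 33 and 40 counts in controls 1 to 4 and 7, 7 and 0 counts in LPS mice 1 to 3. It passed the filter on low counts through the controls, while Klrb1c, higher in every LPS mouse than in every control mouse, was not tested. The number of these markers that fell is therefore not compared with the share of all genes. Of the T and NK cell markers, Cd4 had the highest mean in control mice, at 2.13 CPM, and Klrb1c in LPS mice, at 0.89 CPM. None of the 3 tested of 6 dendritic cell markers was called, with summed levels from 7.26 to 12.0 CPM in control and from 5.91 to 10.5 CPM in LPS mice, led by Zbtb46. Of 5 endothelial markers 1 rose and 2 fell, with summed levels from 74.1 to 119.8 CPM in control and from 51.5 to 107.2 CPM in LPS mice. The highest mean was that of Clec4g in control mice, at 25.37 CPM and close to the 25.28 CPM of Stab2, and that of Pecam1 in LPS mice, at 26.3 CPM. The part of these cells in the values of the proteasome genes was not tested.

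Promoter sequence was compared for the immune genes, since their factors are known to bind sites near the start of the gene. The 250 bases before the start were taken from RefSeq (GRCm38.p6, another build than that of the counts) for 41 of the 49 members, in 44 windows. These motifs were searched on both strands: TTCNNNGAA, the gamma-activated site motif, GAAANNGAA, part of the site of interferon regulatory factors, and TGACNNNGC, the core of the site that Nfe2l1 and Nfe2l2 share. They occurred in 7.02%, 7.13% and 10.2% of 32851 windows of all genes and in 2, 3 and 5 of the 41 members. The sequences shown are the promoter of Psmb8, the only immune catalytic gene with a match, the stretch between the starts of Psmb9 and Tap1, and the promoter of Psmd9, which was chosen after its values were seen. Capitals mark the motifs, and each sequence runs 5′ to 3′ on the strand of its gene.
Psmb8, chr17:34197945-34198194, plus strand: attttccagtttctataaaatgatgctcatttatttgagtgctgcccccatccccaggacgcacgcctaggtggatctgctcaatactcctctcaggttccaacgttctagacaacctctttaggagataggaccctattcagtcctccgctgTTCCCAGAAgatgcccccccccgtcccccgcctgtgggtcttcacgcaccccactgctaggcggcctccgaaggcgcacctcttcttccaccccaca
Psmb9, chr17:34187331-34187555, minus strand: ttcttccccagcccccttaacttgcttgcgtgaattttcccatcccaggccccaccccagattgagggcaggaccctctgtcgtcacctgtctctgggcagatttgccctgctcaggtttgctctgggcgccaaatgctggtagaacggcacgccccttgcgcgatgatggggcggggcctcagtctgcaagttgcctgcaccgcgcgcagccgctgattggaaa
Psmd9, chr5:123227940-123228189, plus strand: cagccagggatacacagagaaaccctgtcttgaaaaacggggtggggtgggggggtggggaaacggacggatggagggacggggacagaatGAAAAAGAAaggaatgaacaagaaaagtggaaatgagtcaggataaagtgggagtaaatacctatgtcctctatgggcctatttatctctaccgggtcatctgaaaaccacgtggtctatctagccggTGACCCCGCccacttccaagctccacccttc

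Psmb8 held 1 match to the gamma-activated site motif. Psmb9 and Tap1 start 225 bases apart on opposite strands and share the stretch between them, which held none of the motifs, and their log2 fold changes were -0.08 and 0.65. Psmd9 held 1 match each to the interferon regulatory factor motif and the Nfe2l1 motif. The constitutive catalytic genes Psmb5 and Psmb6 and the cap genes Psmc6 and Psmd12 each held the Nfe2l1 motif as well and were not called. Psmb3 and Psmd4 held the interferon regulatory factor motif and Psmg1 the gamma-activated site motif, and they were not called either. The windows of Psmb10, Psme1 and Psme2 held no motif. A match describes the letters of these windows only and does not show a bound site.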

How the data were processed

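Polyadenylated liver RNA was sequenced with strand kept. The authors deposited raw counts of reads per gene. Their processing notes name cutadapt 1.9.1, HISAT2 2.2.1, HTSeq 0.6.1, DESeq2 1.34.0 and GRCm39. The handling of reads that fit several genes is not given in the sources used here. Counts were analysed in R 4.3.3 with edgeR 4.0.16: filterByExpr, TMM scaling, glmQLFit and glmQLFTest with group only, and Benjamini-Hochberg adjustment over 13683 genes. SE and 95% intervals were derived from its F statistic. TMM-scaled library sizes gave the CPM. Ratios were compared with exact permutation tests. Exon lengths came from GENCODE M21 (GRCm38), matched by gene identifier for 13512 of the genes tested. Named genes were the catalytic pairs, the PA28 and PA200 genes, the extremes of each role, called members (added after their values were seen), the 2 smallest p of each other list, and a fixed set of regulators. The members and lists were chosen with earlier results of these data known. Alternatives included DESeq2 1.42.0, other scaling, filters and thresholds, a replicate block and leaving out mice. Values of some named genes and of a marker list are not reported here.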

Additional observations from a re-analysis of the deposited data

Results flagged for a closer look

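Psmb4, a beta subunit without catalytic activity, had 186.3 CPM in control 2, far above the other 3 controls, and its gap to the next control took more of the range than Dixon's critical value of 0.829 for 4 values allows. In all, 51 values were put to this check among the controls, and chance alone is expected to single out about 1 in 20 groups. The LPS group of 3 was not tested in this way.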

How the results depend on the processing

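The number of members called higher, 3 with all mice, was 1 with total counts in place of scaling factors, 1 at an adjusted p below 0.01, 0 when an absolute log2 fold change above 1 was also asked for, and 1 with LPS mice 2 and 3 summed. With single mice left out it lay between 1 and 3. With controls 3 and 4 left out together, a setting chosen after seeing the data, it was 5. The number called lower, 2 with all mice, was 4 with total counts, 4 with at least 10 counts asked for in every sample, 1 at an adjusted p below 0.01, 0 with the fold change threshold, 1 with LPS mice 2 and 3 summed and 8 with controls 3 and 4 left out together. With single mice left out it lay between 1 and 4. The stricter p and fold change thresholds can only call fewer genes, and for the other settings the cause was not tested. With each library's trend along exon length taken off, also chosen after seeing the data, 2 members were higher and 3 were lower.

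With the replicate block, in which control 4 has no partner and was left out, 4 members were higher and 3 were lower. Mice that share a number correlated at 0.18, -0.06 and 0.07 in their deviations from the group mean. LPS mouse 1 correlated best with control 1, and LPS mouse 2 with control 3, at 0.097. LPS mouse 3 correlated about alike with controls 3 and 4, at 0.066 and 0.069. No pairing is labelled, and deviations taken within such small groups can neither show nor exclude it. Under the block the ratio differences were 0.62, 0.19 and -0.05 for Psmb8 to Psmb5, Psmb9 to Psmb6 and Psmb10 to Psmb7.

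With single mice left out, the difference in the ratio lay between 0.54 and 0.68 for Psmb8 to Psmb5, between -0.10 and 0.49 for Psmb9 to Psmb6 and between -0.06 and 0.13 for Psmb10 to Psmb7, and no alternative brought an adjusted p below 0.05. With a mouse or more left out, 2 mice summed or the block, the exact test could not have reached that threshold. For the single genes named, 657 of the values under an alternative kept their side of the threshold, 87 no longer passed it and 15 newly passed it, and no called direction turned. The median 95% interval of a member reached 0.35 to either side on the log2 scale. These intervals are not adjusted for the number of genes tested. By them 4 members lay above 0 and 6 below, while 3 were called higher and 2 lower. Differences smaller than 0.35 were thus mostly not detectable with 7 mice. Some larger ones were not called either, such as Psmb2 at -0.45, Psmd13 at 0.48 and Psmg3 at -0.65.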
